A study of Homo sapiens with 12 samples.

Results

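Transforming growth factor beta (TGF-beta) and bone morphogenetic protein (BMP) genes were compared between 4 untreated human ovarian cancer cell lines. The set comprised 59 genes listed by symbol: 19 ligands, 14 receptors and co-receptors, 13 extracellular antagonists and binding proteins, 9 genes of SMAD proteins and of the SMAD ubiquitin ligase SMURF2, and 4 ID genes. A probe set that the array annotation assigns to that gene alone measured 55 of the 59, among 19775 genes in all. BMPR1A, GDF6, TDGF1 and LEFTY2 were not analysed here. Each gene was read from its probe set with the highest mean over the 12 arrays.

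Total RNA of each line was hybridised to 3 arrays of the Affymetrix U133Plus 2.0 design. The lines were IGROV1, SKOV3, TOV112D (T112D in the array titles) and TOV21G, all parental and without treatment. RPMI with bicarbonate and fetal calf serum was the medium of IGROV1, TOV112D and TOV21G, and DMEM with fetal calf serum that of SKOV3, so medium and line cannot be told apart for SKOV3. TOV112D was derived from an endometrioid and TOV21G from a clear cell ovarian carcinoma, and each line represents 1 tumour. Whether the 3 arrays of a line stem from separate cultures is not in the labels. The p-values therefore describe the spread among these 12 arrays alone, which could be technical. In bulk RNA, fewer cells that express a gene and less RNA per cell cannot be told apart.

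TGF-beta family ligands are secreted dimers that bring together type II and type I receptor kinases on the cell surface. TGF-betas, activins and NODAL pass their signal mainly to SMAD2 and SMAD3, and BMPs mainly to SMAD1, SMAD5 and SMAD9, both with SMAD4 as the shared partner. SMAD6 and SMAD7 are feedback inhibitors, the ID genes are classical BMP targets, and GREM1, NOG and FST encode secreted proteins that bind ligands before they reach a receptor. In the ovary, activins, inhibins and BMPs regulate follicle growth, and TGF-beta can restrain growth of the surface epithelium.

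Values were log2 expression levels from robust multi-array averaging (RMA), so 1 unit is a 2-fold difference. The median of all deposited values was 4.44 and their range was 1.478 to 13.999. Probe sets differ in their response, so levels were compared between lines and never between genes. Differences are given with their standard error (SE) from limma, fitted on all 19775 genes over 12 arrays, and adjusted p-values use the Benjamini-Hochberg method over all genes. The threshold for a call was an adjusted p below 0.05 together with a difference of at least 1.

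Over all genes, the correlation was 0.99716 to 0.99757 within lines and 0.88918 to 0.93945 between lines. ERBB2, which SKOV3 is known to carry in amplified form, had a mean of 8.14 in the arrays titled SKOV3, below the 8.48 to 9.01 of the other lines. That group is therefore written as the SKOV3-labelled arrays, and no direction given for it is claimed for SKOV3 cells in general. SMARCA4, known to be lost in TOV112D, was at 7.11 there against 10.15 or more elsewhere, and ARID1A, known to be mutated in TOV21G, was at 7.46 there against 9.31 or more elsewhere. All 6 epithelial markers reached the median of all values in IGROV1, where their mean level per array was 11.15 to 11.17. In TOV21G 4 of the 6 reached it (6.88 to 7.14), in TOV112D 3 (4.22 to 4.47) and in the SKOV3-labelled arrays 2 (6.21 to 6.25), with EPCAM at 3.41 and CDH1 at 2.95, whereas KRT8 at 11.75 and KRT18 at 12.62 were there higher than in any other line. Fibroblast markers reached the median for 6 of 7 genes in TOV112D (8.55 to 8.76), with COL3A1 at 13.27 and LUM at 11.50 but COL1A2 at 3.73, for 5 of 7 in the SKOV3-labelled arrays (6.16 to 6.26), which had the highest COL1A1 at 11.63, for 3 in TOV21G (4.75 to 4.76) and for 2 in IGROV1 (3.97 to 4.01). All 4 measured pluripotent cell markers (NANOG, SOX2, LIN28A and SALL4) reached it in the SKOV3-labelled arrays (10.09 to 10.20), where 5 of 6 endothelial markers did too (5.49 to 5.64). The other lines had pluripotent marker means of 3.69 to 5.39 and endothelial marker means of 3.72 to 4.26. Pluripotent markers reached the median for 3 of 4 genes in TOV21G, with LIN28A at 7.15, and for 2 in each of IGROV1 and TOV112D. POU5F1, also listed, was not measured. Endothelial markers reached the median for 3 of 6 genes in IGROV1 and for 2 in each of TOV112D and TOV21G. Of 3 leukocyte markers, only PTPRC in TOV112D reached it, at 4.58. The part of these marker differences in the results that follow was not tested.

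Most of the measured genes differed between the lines. In the test of any difference among the 4 lines (limma F test), 39 of 55 were called, with a span of line means of at least 1, which is 70.9% against 34.4% of all genes. This share describes a list drawn up with earlier results known, and of the family genes outside it 2 of 10 ligands, 5 of 8 receptors and co-receptors and 7 of 11 secreted antagonists were called. Among genes that reached the median of all values in at least 1 line, 37 of 50 were called against 47.3% of all such genes. The median span of line means was 2.00 over the 55 genes and 0.64 over all genes. The 5 genes that stayed below the median in every line were BMP3, BMP5, GDF10, INHA and LEFTY1. Without the SKOV3-labelled arrays, 32 of the 55 were called. The share of all genes called without them is not given here, so this count cannot be set against the shares above.

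Each line was then set against the other 3 lines, by the difference from their mean. IGROV1 had 6 genes higher and 17 lower, against 7.20% and 7.10% of all genes. The SKOV3-labelled arrays had 14 higher and 6 lower, against 6.53% and 8.01%. TOV112D had 11 higher and 10 lower, against 7.03% and 7.64%. TOV21G had 8 higher and 11 lower, against 7.09% and 5.15%. Without the SKOV3-labelled arrays its lower count was 6, for which the share of all genes is not given here. The median difference of the 55 genes was -0.27 in IGROV1, 0.15 in the SKOV3-labelled arrays, -0.21 in TOV112D and -0.080 in TOV21G, where all genes had medians of -0.0079, -0.023, -0.019 and 0.009. A comparison with a mean of 3 lines also calls a line low where 1 of the others is extreme: INHBE and GREM1 were called in all 4 comparisons, although 3 lines shared about the same level.

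A stricter count, added after the values had been seen, took only genes that were higher, or lower, by a call in all 3 pairwise comparisons of a line, and such genes are here termed set apart. By it IGROV1 was set apart by 5 higher genes (BMP2, BMP6, INHBB, TGFBR2 and SMAD3) against 2.62% of all genes, and by 8 lower genes (TGFB1, BMP4, INHBA, ACVR1, NOG, SMAD7, ID2 and ID3) against 1.85%. The SKOV3-labelled arrays were set apart by 9 higher genes (BMP4, GDF10, INHBE, BMPR1B, ACVR2B, BAMBI, GREM1, CHRDL1 and FST) against 3.0%, and by 1 lower gene (BMPR2) against 2.37%. TOV112D was set apart by 6 higher genes (TGFB2, INHBA, BMPR2, NOG, LTBP1 and SMAD9) against 3.0%, and by SMAD3 and ID4 as lower genes against 2.38%. TOV21G was set apart by 1 higher gene (FSTL1) against 2.37%, and by GDF11 and LTBP1 as lower genes against 0.956%. In all, 28 genes were set apart in at least 1 line, a total for which the share of all genes is not given here. Another 11 were called in the F test without being set apart, namely TGFB3, TGFBR3, ENG, ACVR1B, CHRD, LEFTY1, LTBP2, LTBP3, SMAD6, SMURF2 and ID1.

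**Figure D1:**
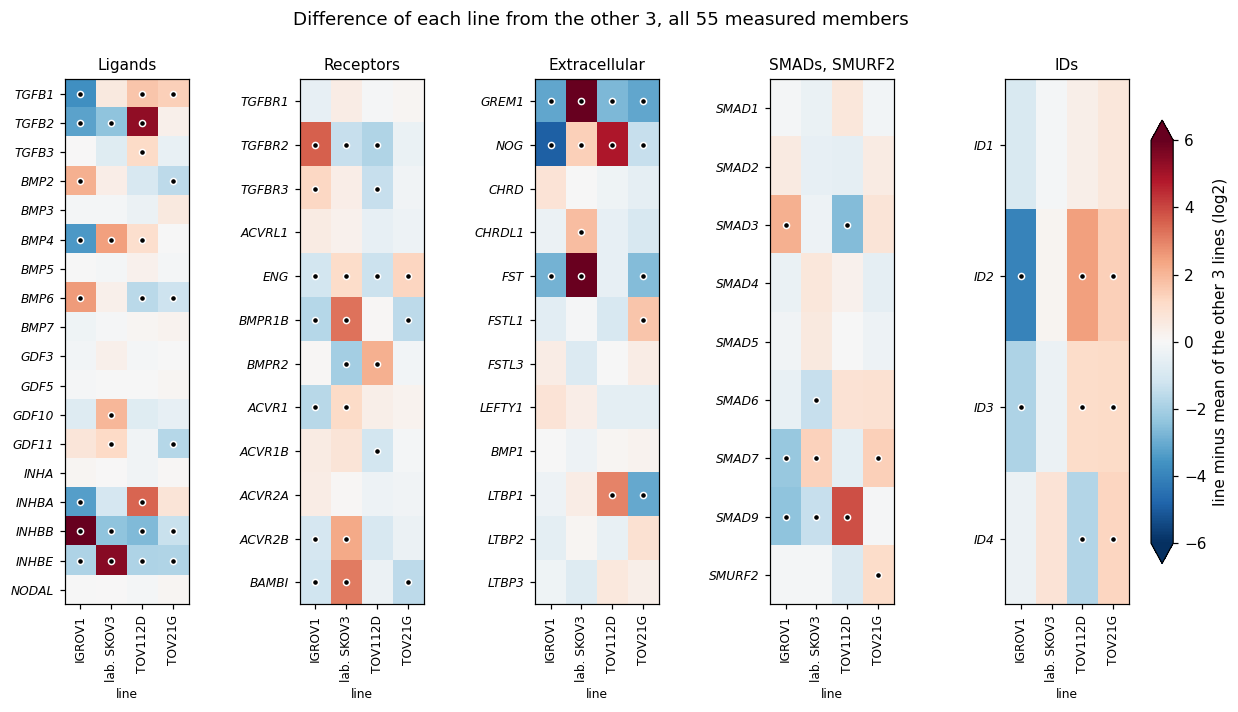
Difference of each line from the mean of the other 3 (colour, log2 units, white at 0) for the 55 measured genes, grouped by role, with a dot where the difference was called; colours saturate at 6 units in either direction. The column of IGROV1 holds 17 lower and 6 higher calls, and that of the SKOV3-labelled arrays 14 higher and 6 lower.

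Among the 18 measured ligand genes, 11 differed between the lines, against 34.4% of all genes, and the lines differed in which ligand was high. TOV112D had the highest TGFB2 and INHBA, IGROV1 the highest INHBB, BMP2 and BMP6, and the SKOV3-labelled arrays the highest BMP4 and INHBE. Span of line means ranged from 0.14 for GDF5 to 6.77 for INHBB. The 7 ligand genes without a call were BMP3, BMP5, BMP7, GDF3, GDF5, INHA and NODAL.

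TGFB1 encodes the most widely expressed TGF-beta isoform. Its level was 4.54, 3.40 and 3.93 in IGROV1, 7.37, 6.92 and 7.21 in the SKOV3-labelled arrays, 7.88, 8.002 and 8.06 in TOV112D, and 7.91, 7.74 and 7.72 in TOV21G. The 3 IGROV1 arrays lay below all others, and the arrays of TOV112D and TOV21G overlapped. IGROV1 differed from the nearest line, the SKOV3-labelled arrays, by -3.21 ± 0.22 (SE, adjusted p = 5.8e-08), while TOV112D and TOV21G differed by 0.19 ± 0.22 (adjusted p = 0.51). Against the mean of the other lines IGROV1 differed by -3.69 in this probe set, by -0.30 in the other probe set of TGFB1, which is under the minimum for a call, and by -2.00 in their mean.

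TGFB2 encodes the isoform that depends on the co-receptor betaglycan for high-affinity binding. On the arrays it stood at 3.48, 3.64 and 3.26 in IGROV1, 3.87, 4.01 and 4.22 in the SKOV3-labelled arrays, 10.003, 9.78 and 9.72 in TOV112D, and 6.21, 5.96 and 6.10 in TOV21G. TOV112D was high, TOV21G intermediate and the other 2 groups were below the median of all values, with no overlap between any groups. The margin of TOV112D over TOV21G was 3.75 ± 0.12 (SE, adjusted p = 5.3e-11), and that of TOV21G over the SKOV3-labelled arrays was 2.06 ± 0.12 (adjusted p = 1.6e-08). TGFB3 spanned 1.42, from 4.44 in the SKOV3-labelled arrays to 5.86 in TOV112D, and was higher in TOV112D by 1.16 ± 0.081 (SE, adjusted p = 7.8e-08).

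INHBA and INHBB encode the beta subunits of activins A and B, which also pair with the alpha subunit to form inhibins. INHBA was measured at 3.60, 3.54 and 3.50 in IGROV1, 5.54, 5.12 and 5.18 in the SKOV3-labelled arrays, 8.50, 8.68 and 8.79 in TOV112D, and 6.62, 6.78 and 6.45 in TOV21G. The 4 groups did not overlap and ran from IGROV1 up to TOV112D. TOV112D exceeded TOV21G by 2.04 ± 0.12 (SE, adjusted p = 1.4e-08), and IGROV1 was below the SKOV3-labelled arrays with a difference of -1.73 ± 0.12 (adjusted p = 6.1e-08).

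INHBB read 11.06, 11.09 and 11.06 in IGROV1, 4.79, 4.43 and 4.28 in the SKOV3-labelled arrays, 3.85, 4.12 and 4.96 in TOV112D, and 5.09, 5.43 and 5.41 in TOV21G. The extremes were reversed relative to INHBA, since the IGROV1 arrays stood far above the 9 others, and TOV112D had the lowest mean and overlapped with the SKOV3-labelled arrays. The nearest line, TOV21G, was 5.77 ± 0.23 below IGROV1 (SE, adjusted p = 7.3e-10). INHA, the alpha subunit, was between 3.55 and 3.80 in every line mean, and its lines did not differ in the F test (adjusted p = 0.37).

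INHBE encodes the activin beta-E subunit, known mainly from liver. Its levels were 2.73, 2.997 and 2.93 in IGROV1, 8.27, 8.36 and 8.51 in the SKOV3-labelled arrays, 2.94, 2.70 and 3.05 in TOV112D, and 2.92, 2.77 and 3.07 in TOV21G. Only the SKOV3-labelled arrays were above the median of all values, and the other 9 arrays overlapped near the bottom of the scale, where RMA values no longer follow the amount of RNA closely. The margin over TOV21G, 5.46 ± 0.11 (SE, adjusted p = 1.1e-12), therefore depends on that floor.

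BMP4, a ligand of mesoderm and ovarian theca cells, measured 4.52, 4.67 and 4.67 in IGROV1, 9.15, 8.84 and 9.07 in the SKOV3-labelled arrays, 7.77, 7.95 and 8.13 in TOV112D, and 7.06, 7.28 and 7.15 in TOV21G. IGROV1 was lowest and the SKOV3-labelled arrays highest, with no overlap among the 4 groups. IGROV1 differed from TOV21G by -2.55 ± 0.11 (SE, adjusted p = 1e-09), and the SKOV3-labelled arrays exceeded TOV112D by 1.08 ± 0.11 (adjusted p = 2.2e-06).

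BMP6, produced by oocytes and also the main regulator of hepcidin in liver, was found at 7.30, 7.24 and 7.36 in IGROV1, 5.83, 5.39 and 5.63 in the SKOV3-labelled arrays, 4.35, 3.91 and 4.32 in TOV112D, and 4.59, 4.61 and 4.18 in TOV21G. IGROV1 was above all other arrays, and those of TOV112D and TOV21G overlapped near the median of all values. The margin of IGROV1 over the SKOV3-labelled arrays was 1.68 ± 0.15 (SE, adjusted p = 6.9e-07). This value rests on 1 probe set: the mean of the 3 probe sets of BMP6 gave 0.73 for IGROV1 against the other lines, under the minimum for a call. BMP2, the closest relative of BMP4, had line means of 6.50 ± 0.13 (SD, n = 3) in IGROV1, 5.19 ± 0.26 in the SKOV3-labelled arrays, 4.16 ± 0.17 in TOV112D and 3.72 ± 0.19 in TOV21G. The line with the lowest BMP4 thus had the highest BMP2 and BMP6.

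GDF11, a relative of myostatin, was lower in TOV21G by a difference of -1.70 ± 0.073 (SE, adjusted p = 9.7e-10) and GDF10 was at 4.24 in the SKOV3-labelled arrays against 2.16 to 2.35, all below the median of all values. GDF3, GDF5 and NODAL, an inducer of mesoderm and endoderm, had spans of 0.34, 0.14 and 0.17.

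**Figure D2:**
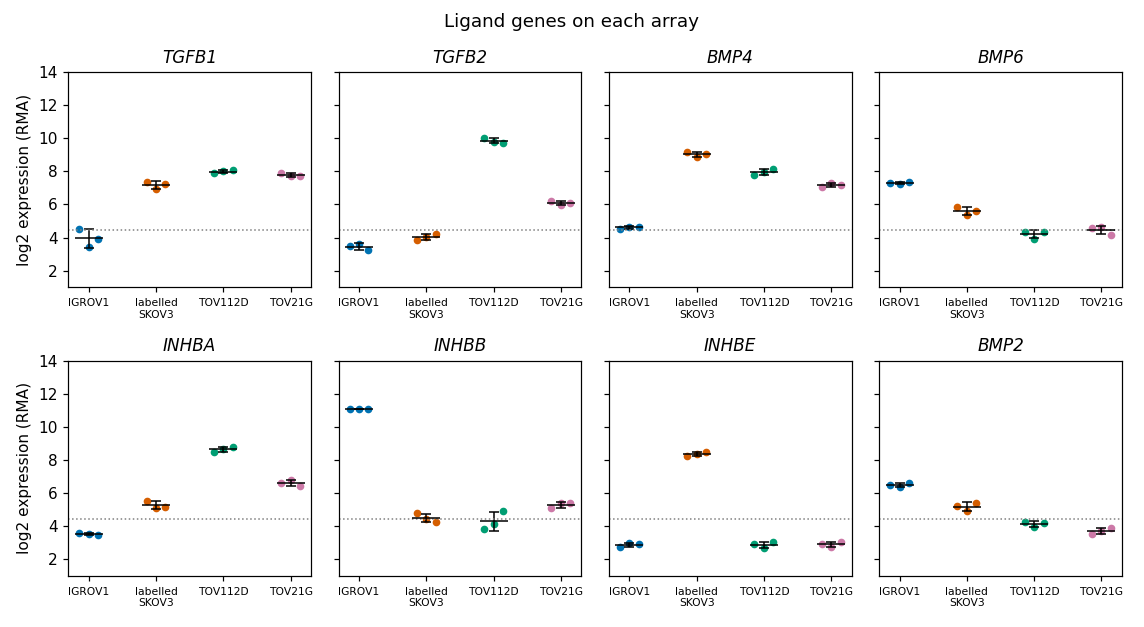
Log2 expression (RMA) of 8 ligand genes on each of the 12 arrays by line; points are arrays, bars the mean and SD of 3 arrays, and the dotted line the median of all deposited values (4.44). INHBB is at 11.06 to 11.09 in IGROV1 and at most 5.43 on the other 9 arrays, while INHBA runs from 3.50 in IGROV1 to 8.79 in TOV112D.

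Of 12 measured receptor and co-receptor genes, 9 differed between the lines, against 34.4% of all genes. All 12 reached the median of all values in at least 1 line, and of all genes that did so 47.3% were called. The type II receptor genes went separate ways: TGFBR2 was highest in IGROV1, BMPR2 in TOV112D and ACVR2B in the SKOV3-labelled arrays. ACVR2A, another activin type II receptor, spanned 0.56, and the type I receptor genes TGFBR1 and ACVRL1 spanned 0.71 and 0.74, all under the minimum for a call.

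TGFBR2 encodes the type II receptor that binds TGF-beta itself. Array values were 10.81, 10.88 and 10.93 in IGROV1, 7.16, 7.09 and 7.22 in the SKOV3-labelled arrays, 6.69, 6.92 and 6.96 in TOV112D, and 7.93, 7.94 and 7.88 in TOV21G. The IGROV1 arrays lay above all others, and no 2 groups overlapped. TOV21G, the next line, was exceeded by 2.96 ± 0.076 (SE, adjusted p = 1.3e-11). TGFBR3 encodes betaglycan and had the same highest and lowest line, at 8.02 ± 0.11 (SD, n = 3) in IGROV1 and 6.05 ± 0.048 in TOV112D. TOV112D, where TGFB2 was highest, was thus the line with the lowest means of TGFBR2 and TGFBR3. TGFBR1, the type I partner, was between 8.77 in IGROV1 and 9.48 in the SKOV3-labelled arrays.

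BMPR2, the type II receptor for BMPs, gave 9.10, 9.15 and 9.11 in IGROV1, 7.58, 7.55 and 7.45 in the SKOV3-labelled arrays, 10.63, 10.74 and 10.64 in TOV112D, and 8.98, 8.92 and 9.002 in TOV21G. TOV112D was high, the SKOV3-labelled arrays were low, and no groups overlapped. Its level in TOV112D exceeded that in IGROV1 by 1.55 ± 0.059 (SE, adjusted p = 2.2e-10), and the SKOV3-labelled arrays differed from TOV21G by -1.44 ± 0.059 (adjusted p = 5.4e-10). In 4 other probe sets of BMPR2 the order of the lines was the same.

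BMPR1B, a type I BMP receptor prominent in granulosa cells and cartilage, showed 3.84, 4.09 and 3.99 in IGROV1, 7.65, 7.66 and 7.77 in the SKOV3-labelled arrays, 5.17, 5.37 and 5.40 in TOV112D, and 3.82, 3.92 and 4.49 in TOV21G. The SKOV3-labelled arrays were highest, TOV112D was intermediate, and IGROV1 and TOV21G overlapped. The gap between the SKOV3-labelled arrays and TOV112D was 2.38 ± 0.15 (SE, adjusted p = 2.9e-08). IGROV1 and TOV21G differed by -0.10 ± 0.15 (adjusted p = 0.61).

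BAMBI encodes a pseudoreceptor that resembles a type I receptor without a kinase domain and dampens signalling. Its expression was 6.91, 6.90 and 6.93 in IGROV1, 10.10, 10.11 and 10.16 in the SKOV3-labelled arrays, 7.45, 7.57 and 7.63 in TOV112D, and 6.51, 6.67 and 6.64 in TOV21G. Again the SKOV3-labelled arrays stood above all others, and the groups did not overlap. They exceeded TOV112D by 2.57 ± 0.065 (SE, adjusted p = 7.3e-12).

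Other receptor genes also had their highest mean in the SKOV3-labelled arrays. ACVR2B was at 8.91 ± 0.056 (SD, n = 3) there and at 6.42 to 6.94 in the other line means. ACVR1, the type I receptor ALK2, was at 9.38 there and lowest in IGROV1, at 7.27 ± 0.13, with TOV112D and TOV21G at 8.79 and 8.68. ENG, the endothelial co-receptor endoglin, split the lines into pairs in the probe set used. It was at 7.33 in TOV21G and 7.17 in the SKOV3-labelled arrays (difference between them, adjusted p = 0.26). Its level was 5.51 in IGROV1 and 5.38 in TOV112D (adjusted p = 0.39). The other probe set of ENG, 201808_s_at, did not show this split, with line means of 4.01 to 4.63. There TOV21G differed from the other lines by 0.079 (adjusted p = 0.69). Endothelial markers reached the median of all values for 5 of 6 genes in the SKOV3-labelled arrays, 3 in IGROV1, 2 in TOV112D and 2 in TOV21G. ACVR1B, the main activin type I receptor, was lowest in TOV112D, with a difference of -1.11 ± 0.048 from the other lines (SE, adjusted p = 7.7e-10). In another of its probe sets, 205209_at, that difference was -0.30, under the minimum for a call. There IGROV1 was lowest, at 6.00 against 6.23 in TOV112D, and the SKOV3-labelled arrays were highest, at 7.51.

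Extracellular antagonists and binding proteins held the widest difference of the set. Of 12 measured genes 10 differed between the lines, against 34.4% of all genes, and GREM1 spanned 9.03. GREM1 and FST were high in the SKOV3-labelled arrays, NOG and LTBP1 in TOV112D, and FSTL1 in TOV21G. FSTL3 and BMP1, the protease that also cleaves the antagonist chordin, had spans of 0.96 and 0.37 and no call.

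GREM1 encodes gremlin, which binds BMP2, BMP4 and BMP7. The arrays gave 2.14, 2.42 and 2.58 in IGROV1, 11.35, 11.43 and 11.44 in the SKOV3-labelled arrays, 2.81, 2.71 and 2.55 in TOV112D, and 2.41, 2.23 and 2.52 in TOV21G. All 3 SKOV3-labelled arrays were above 11 and the other 9 lay between 2.14 and 2.81, at the bottom of the scale. Relative to TOV112D, the nearest line, the margin was 8.72 ± 0.11 (SE, adjusted p = 2.5e-14), a size set in part by that floor. The other probe set of GREM1 had line means of 11.35 and of 2.24 to 2.72.

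FST encodes follistatin, which binds activins nearly irreversibly. It was detected at 4.75, 4.25 and 4.88 in IGROV1, 11.23, 11.11 and 11.31 in the SKOV3-labelled arrays, 6.41, 6.39 and 6.35 in TOV112D, and 4.64, 4.80 and 4.95 in TOV21G. The SKOV3-labelled arrays were high, TOV112D was intermediate, and IGROV1 and TOV21G overlapped near the median of all values. The margin over TOV112D was 4.83 ± 0.14 (SE, adjusted p = 2.1e-11). CHRDL1, a chordin-like BMP antagonist, was also highest in these arrays, with 5.26 ± 0.50 (SD, n = 3) in the SKOV3-labelled arrays and 3.14 to 3.60 elsewhere. These were the arrays in which the pluripotent markers averaged 10.09 to 10.20.

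NOG encodes noggin, an antagonist of BMP2, BMP4 and related ligands. Its values were 3.57, 2.84 and 2.92 in IGROV1, 7.69, 7.91 and 7.999 in the SKOV3-labelled arrays, 10.39, 10.46 and 10.43 in TOV112D, and 5.53, 5.96 and 5.80 in TOV21G. The groups did not overlap, and the whole range from the bottom of the scale to a high level was covered, with IGROV1 lowest and TOV112D highest. TOV112D exceeded the SKOV3-labelled arrays by 2.56 ± 0.17 (SE, adjusted p = 6.4e-08), and IGROV1 differed from TOV21G by -2.65 ± 0.17 (adjusted p = 6.2e-08). IGROV1, lowest in NOG, was also lowest in BMP4, and GREM1 was at the floor there.

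LTBP1 encodes the protein that binds latent TGF-beta to the matrix. The readings were 6.68, 6.77 and 6.65 in IGROV1, 7.36, 7.22 and 7.25 in the SKOV3-labelled arrays, 9.18, 9.18 and 9.11 in TOV112D, and 4.84, 4.40 and 4.62 in TOV21G. TOV112D was high and TOV21G low, with no overlap. TOV112D stood 1.88 ± 0.095 above the SKOV3-labelled arrays (SE, adjusted p = 4.3e-09), and TOV21G differed from IGROV1 by -2.08 ± 0.095 (adjusted p = 2.5e-09). The other probe set of LTBP1, 202728_s_at, gave the same order of the lines. In it TOV21G, at 5.09 ± 0.13 (SD, n = 3), was close to IGROV1, at 5.45 ± 0.53, under the minimum for a call. LTBP1 thus set TOV21G apart from IGROV1 in the probe set used only. TGFB2, LTBP1 and NOG were thus all highest in TOV112D, the line in which 6 of 7 fibroblast markers reached the median of all values. LTBP2 was called in the F test with a span of 1.11, highest in TOV21G, and LTBP3, whose probe set ends in _x_at, with a span of 1.05, highest in TOV112D.

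FSTL1, a secreted follistatin-like glycoprotein, was above 9 in every line, from 9.58 ± 0.057 (SD, n = 3) in TOV112D to 11.58 ± 0.017 in TOV21G. TOV21G exceeded the SKOV3-labelled arrays by 1.31 ± 0.055 (SE, adjusted p = 7.6e-10). CHRD, which encodes chordin, was at 5.59 in IGROV1 and 4.55 to 4.94 elsewhere, and LEFTY1, an inhibitor of NODAL signalling, stayed below the median of all values in every line.

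**Figure D3:**
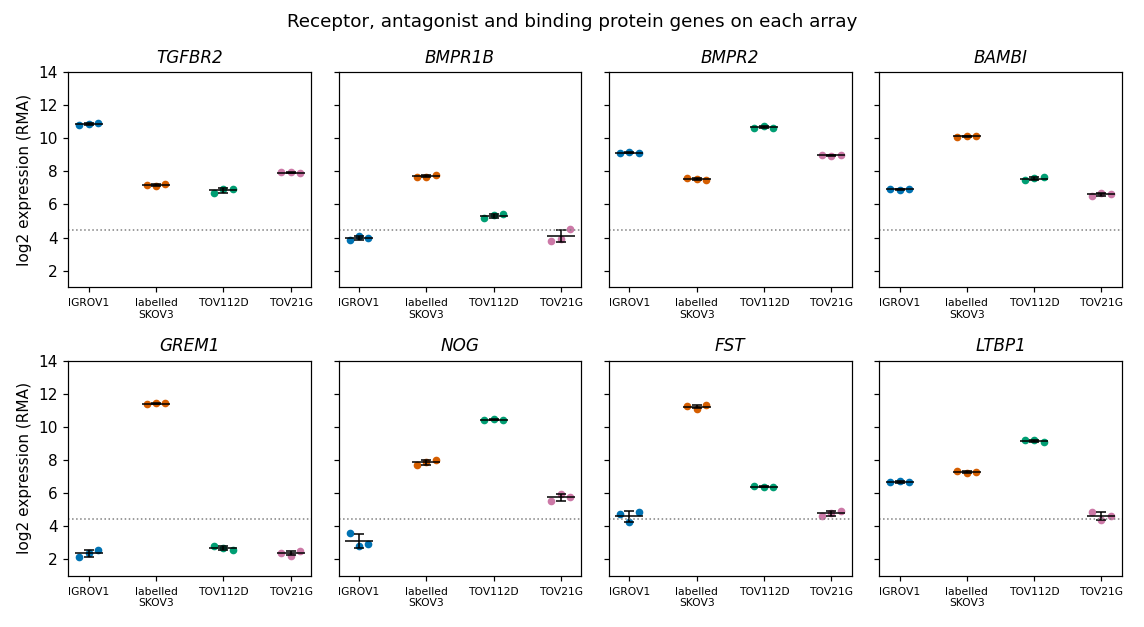
Log2 expression (RMA) of 4 receptor genes (upper row) and 4 genes of secreted antagonists or binding proteins (lower row) on each of the 12 arrays by line; points are arrays, bars the mean and SD of 3 arrays, and the dotted line the median of all deposited values (4.44). GREM1 is above 11 in the SKOV3-labelled arrays and at most 2.81 elsewhere, and NOG is lowest in IGROV1 and highest in TOV112D.

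Among the 9 genes of SMAD proteins and SMURF2, 5 differed between the lines. All 9 reached the median of all values in at least 1 line, and of all genes that did so 47.3% were called, so their share lies near the background. In the probe sets used, the shared partner SMAD4 and the receptor-activated SMAD1, SMAD2 and SMAD5 had line means between 8.36 and 10.18. Their spans were 0.68 to 0.91, under the minimum for a call. Other probe sets of SMAD2 spanned 1.61 (203076_s_at), 1.53 (203077_s_at), 1.11 (226563_at), 0.74 and 0.53. Those of SMAD5 spanned 1.74 (225219_at), 1.51, 1.43 and 0.83. For SMAD6, which was called, the other probe sets spanned 0.63, 0.49 and 0.19, under the minimum. The count of 5 could thus be higher or lower with another choice of probe set. SMAD3 and SMAD9 differed most. The inhibitory SMAD6 and SMAD7 and the ligase SMURF2 were called with spans of 1.74, 2.78 and 1.49.

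SMAD3 transmits TGF-beta and activin signals and binds DNA directly. On the 12 arrays it was at 9.44, 9.50 and 9.42 in IGROV1, 7.61, 7.62 and 7.68 in the SKOV3-labelled arrays, 5.82, 5.87 and 5.98 in TOV112D, and 8.50, 8.43 and 8.36 in TOV21G. IGROV1 was highest and TOV112D lowest, with no overlap among the groups. IGROV1 exceeded TOV21G by 1.02 ± 0.063 (SE, adjusted p = 3.7e-08), and TOV112D differed from the SKOV3-labelled arrays by -1.75 ± 0.063 (adjusted p = 1.7e-10). TOV112D differed from the mean of the others by -2.62 in SMAD3, and by -1.69 with its probe sets averaged. The order of the lines in SMAD3 was that of TGFBR2.

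SMAD9, also known as SMAD8, belongs to the BMP branch. Values were 3.70, 4.09 and 4.33 in IGROV1, 5.10, 4.64 and 4.77 in the SKOV3-labelled arrays, 8.74, 8.84 and 8.70 in TOV112D, and 5.73, 5.91 and 5.76 in TOV21G. Here TOV112D stood above all other arrays and IGROV1 below them, again without overlap. The margin of TOV112D over TOV21G was 2.96 ± 0.15 (SE, adjusted p = 3.9e-09). Against the mean of the other lines it was 3.87, and 2.55 with the probe sets averaged. In the probe sets used, TOV112D thus had the highest SMAD9 and the lowest SMAD3, while IGROV1 had the reverse. In the other probe set of SMAD9, 206320_s_at, TOV112D was also highest, at 5.10. There TOV21G was lowest, at 3.77 against 3.80 in IGROV1.

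SMAD7, the inhibitor of both branches, had line means of 6.01 ± 0.048 (SD, n = 3) in IGROV1, 7.28 ± 0.038 in TOV112D, 8.75 ± 0.087 in the SKOV3-labelled arrays and 8.78 ± 0.14 in TOV21G. IGROV1 differed from TOV112D by -1.27 ± 0.075 (SE, adjusted p = 1.6e-08), whereas the 2 highest groups differed by 0.033 ± 0.075 (adjusted p = 0.76). In the probe set used, SMAD6, which acts mainly against the BMP branch, was lowest in the SKOV3-labelled arrays, at 6.44 ± 0.11. It was highest in TOV21G and TOV112D, at 8.18 and 8.15. SMURF2 was highest in TOV21G, at 11.10 against 9.62 to 10.17.

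The 4 ID genes, whose proteins hold back basic helix-loop-helix transcription factors, all differed between the lines, against 34.4% of all genes. They all reached the median of all values, and of all genes that did so in at least 1 line 47.3% were called. IGROV1 had the lowest mean of ID1, ID2 and ID3, followed by the SKOV3-labelled arrays, and ID4 had another order, with TOV112D lowest. The ID1 span was 1.20, from 11.37 ± 0.024 (SD, n = 3) in IGROV1 to 12.57 ± 0.14 in TOV21G, with no line called against the other 3. ID3 was at 9.79 ± 0.013 in IGROV1, 10.92 ± 0.14 in the SKOV3-labelled arrays, 12.03 ± 0.047 in TOV112D and 12.04 ± 0.092 in TOV21G.

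ID2 was read at 8.13, 8.22 and 7.82 in IGROV1, 10.95, 11.34 and 11.29 in the SKOV3-labelled arrays, 12.94, 12.84 and 12.96 in TOV112D, and 12.31, 12.001 and 12.17 in TOV21G. IGROV1 lay well below the other 9 arrays and TOV112D was highest, with no overlap. IGROV1 differed from the SKOV3-labelled arrays by -3.14 ± 0.13 (SE, adjusted p = 3.8e-10), and TOV112D exceeded TOV21G by 0.76 ± 0.13 (adjusted p = 0.00021), under the minimum for a call.

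ID4 reached 10.67, 10.64 and 10.68 in IGROV1, 11.49, 11.55 and 11.63 in the SKOV3-labelled arrays, 9.60, 9.57 and 9.64 in TOV112D, and 11.84, 11.95 and 11.86 in TOV21G. TOV112D was the low line and TOV21G the high line, and the groups did not overlap. TOV112D differed from IGROV1 by -1.06 ± 0.058 (SE, adjusted p = 7.4e-09). Of the 4 other probe sets, 1 gave -0.71 for TOV112D against the other lines, under the minimum for a call. The line with the highest ID2 was thus the line with the lowest ID4.

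**Figure D4:**
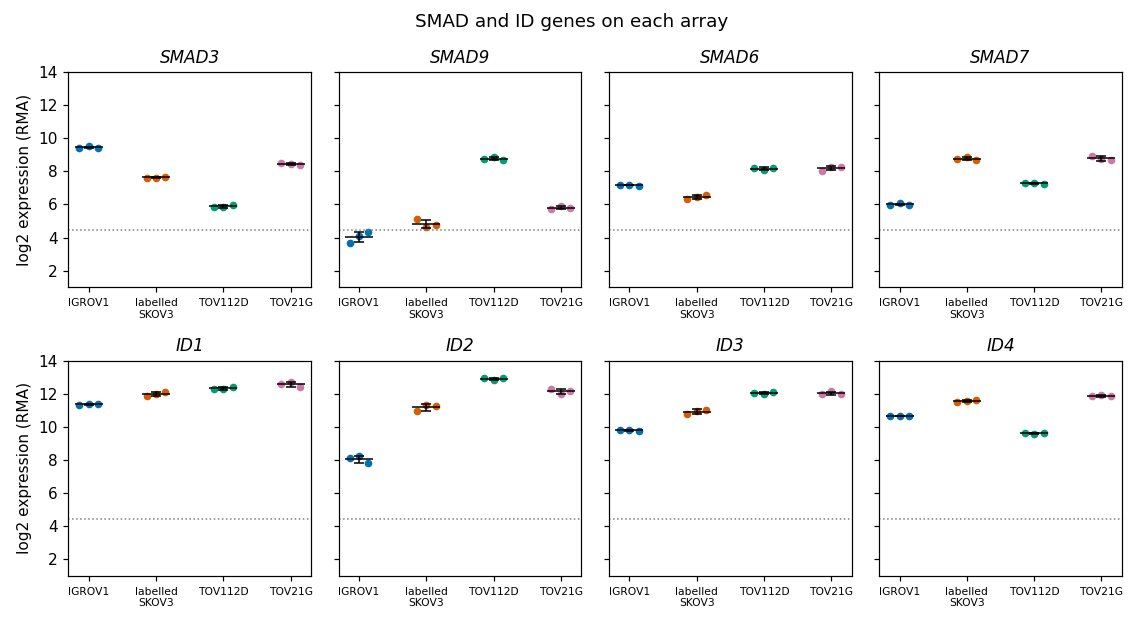
Log2 expression (RMA) of 4 SMAD genes (upper row) and the 4 ID genes (lower row) on each of the 12 arrays by line; points are arrays, bars the mean and SD of 3 arrays, and the dotted line the median of all deposited values (4.44). SMAD3 is lowest and SMAD9 highest in TOV112D, and ID1, ID2 and ID3 are lowest in IGROV1 while ID4 is lowest in TOV112D.

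The upstream sequences of the ID genes are shown because 3 of them shared their 2 lowest groups and the fourth did not. They are the 250 bases before each start site listed by RefSeq in GRCh38.p14, written 5′ to 3′ on the strand of the gene: ID1 at chr20:31605039-31605288 (plus strand), ID2 at chr2:8681806-8682055 (plus strand), ID3 at chr1:23559502-23559751 (minus strand) and ID4 at chr6:19837120-19837369 (plus strand). Capitals mark the SMAD binding element GTCT or, for a match on the other strand, AGAC.
ID1: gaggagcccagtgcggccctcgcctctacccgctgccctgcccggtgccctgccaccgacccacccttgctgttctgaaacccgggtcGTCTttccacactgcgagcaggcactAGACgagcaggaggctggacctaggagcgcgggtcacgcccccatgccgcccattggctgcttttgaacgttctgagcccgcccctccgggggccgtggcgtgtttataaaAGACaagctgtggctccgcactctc
ID2: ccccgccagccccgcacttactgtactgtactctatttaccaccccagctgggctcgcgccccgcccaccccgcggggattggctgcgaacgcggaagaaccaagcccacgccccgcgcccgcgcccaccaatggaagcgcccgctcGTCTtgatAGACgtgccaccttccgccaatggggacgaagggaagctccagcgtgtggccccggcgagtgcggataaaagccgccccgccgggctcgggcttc
ID3: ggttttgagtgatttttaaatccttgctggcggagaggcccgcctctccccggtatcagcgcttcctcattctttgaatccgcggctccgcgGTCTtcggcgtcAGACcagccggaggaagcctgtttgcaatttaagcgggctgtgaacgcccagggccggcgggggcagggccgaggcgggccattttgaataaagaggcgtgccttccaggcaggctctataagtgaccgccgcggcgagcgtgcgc
ID4: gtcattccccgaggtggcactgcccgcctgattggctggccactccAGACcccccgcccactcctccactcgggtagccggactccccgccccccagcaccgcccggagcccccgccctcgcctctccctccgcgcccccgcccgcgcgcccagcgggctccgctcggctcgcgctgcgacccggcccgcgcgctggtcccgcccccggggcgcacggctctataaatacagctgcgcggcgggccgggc

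ID1 held 3 matches of GTCT on both strands, ID2 and ID3 held 2 each, and ID4 held 1. Such matches are common, because 77.5% of 35116 RefSeq windows of the same length held at least 1, 45.6% at least 2 and 20.9% at least 3. A match is a stretch of letters and not a measured site of binding. Whether the number of matches has a part in the order of the lines was not tested. The 8-base palindrome GTCTAGAC, which is GTCT followed by its reverse complement AGAC and is known to be bound by SMAD3 and SMAD4, was found in 64 windows, or 0.182%. Of the 47 genes of the set with such a window, only SMAD6 held it. It is shown as the 60 bases up to the SMAD6 start at chr15:66702176-66702235 (plus strand, same build), with the palindrome in capitals, which begins 12 bases before the start.
SMAD6: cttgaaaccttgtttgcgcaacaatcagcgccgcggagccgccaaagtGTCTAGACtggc

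Other genes of the pathway were counted in lists. Over all genes, 14.3% were called in either direction in IGROV1, 14.5% in the SKOV3-labelled arrays, 14.7% in TOV112D and 12.2% in TOV21G. Among 19 measured TGF-beta and activin response genes, 1 was higher and 9 were lower in IGROV1 (52.6%), 8 higher and 5 lower in the SKOV3-labelled arrays (68.4%), 8 higher and 5 lower in TOV112D (68.4%), and 6 higher and 4 lower in TOV21G (52.6%). Several genes of this list went opposite ways in a pair of lines. THBS1, an activator of latent TGF-beta, was at 11.13 in TOV21G and 3.27 in TOV112D, while the transcription factor gene SNAI2 was at 6.83 in TOV112D and 2.57 in TOV21G. PMEPA1, a feedback inhibitor induced by TGF-beta, was at 8.11 in TOV21G, 7.38 in TOV112D, 5.61 in IGROV1 and 4.14 in the SKOV3-labelled arrays. COL1A1 of this list is also a fibroblast marker, and THBS1, SKIL and TGIF1 stand in another of the lists too.

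Of 12 BMP response genes outside the set, 7 were higher in TOV112D, against 7.03% of all genes, and their median difference there was 1.51, against -0.019 for all genes. HEY1, a repressor of the Hairy family, was at 11.95 ± 0.021 (SD, n = 3) in TOV112D against 3.79 to 6.52 in the other line means. The homeobox gene DLX2 was at 10.66 ± 0.059 there against 4.16 to 7.35. MSX1, another homeobox gene, was at 10.81 ± 0.061 in TOV112D and 9.32 ± 0.21 in the SKOV3-labelled arrays, but at 4.52 and 4.32 in IGROV1 and TOV21G. In TOV21G 5 of the 12 were lower, against 5.15% of all genes, in IGROV1 1 was higher and 5 were lower, and the SKOV3-labelled arrays had 2 and 2. These genes have other regulators as well, and the part of BMP signals in their levels was not tested.

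Calls in the remaining lists went in both directions. Of 10 other ligand genes 1 was called in each line (10%, under the share of all genes), namely GDF15 in IGROV1 (higher), TOV112D (lower) and TOV21G (higher) and BMP8B in the SKOV3-labelled arrays (lower). GDF15, a stress-induced cytokine whose probe set ends in _x_at and may cross-hybridise, ranged from 3.63 in TOV112D to 11.55 in TOV21G. Of 11 other secreted antagonists, 2 were higher and 2 lower in the SKOV3-labelled arrays, where the Wnt and BMP antagonist SOST was at 8.73 ± 0.068 (SD, n = 3) against 2.43 to 2.82 and the NODAL and BMP antagonist CER1 at 6.72 ± 0.36 against 3.74 to 3.86. IGROV1 had 1 higher and 3 lower in that list, TOV112D 2 and 1, and TOV21G 1 and 3, which makes 27.3% to 36.4% called. Among 10 genes of latency and activation, IGROV1 had 2 higher and 3 lower, the SKOV3-labelled arrays 3 and 1, TOV112D 2 and 3, and TOV21G 2 and 2, or 40% to 50%. ITGB8, an integrin subunit that activates latent TGF-beta, was at 11.41 in TOV21G and 10.49 in IGROV1 but at 2.35 ± 0.33 in TOV112D. Of 8 other receptors and co-receptors, 1 was higher in IGROV1, 2 were higher in the SKOV3-labelled arrays, and 1 was higher and 1 lower in each of TOV112D and TOV21G, or 12.5% to 25%. Of 11 SMAD regulators, 1 was higher and 1 lower in each of IGROV1, TOV112D and TOV21G, and 1 was lower in the SKOV3-labelled arrays, or 9.09% to 18.2%, near the share of all genes.

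Other probe sets of the same gene served as a check on the values. Of 88 other probe sets of 38 genes, 82 differed in the same direction as the one used, in the line where that gene differed most, and 33 gave the same order of all 4 lines. Among the 64 that reached the median of all values in at least 1 line, 63 had the same direction. The 23 such probe sets of the genes given array by array all had the same direction, and 18 had the same order.

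A few genes, chosen after their values had been seen, did not read alike across their probe sets. BMP7, counted above as not differing, was flat between 5.51 and 5.88 in the probe set used (211260_at), but 209591_s_at was at 6.26 ± 0.046 (SD, n = 3) in TOV112D and 2.56 to 3.13 elsewhere. GDF11 was highest in the SKOV3-labelled arrays in the probe set used (216860_s_at), at 7.47, whereas 226234_at and 226232_at were highest in TOV112D, at 6.41 and 6.74. TOV21G was lowest in 216860_s_at and 226234_at, but in 226232_at IGROV1 was lowest, at 5.78 against 5.82 in TOV21G. FSTL1 was highest in TOV21G in 2 probe sets, but 240891_at was highest in IGROV1, at 6.12 ± 0.085 against 3.89 to 4.76. Which transcripts these probe sets measure was not analysed here.

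**Figure D5:**
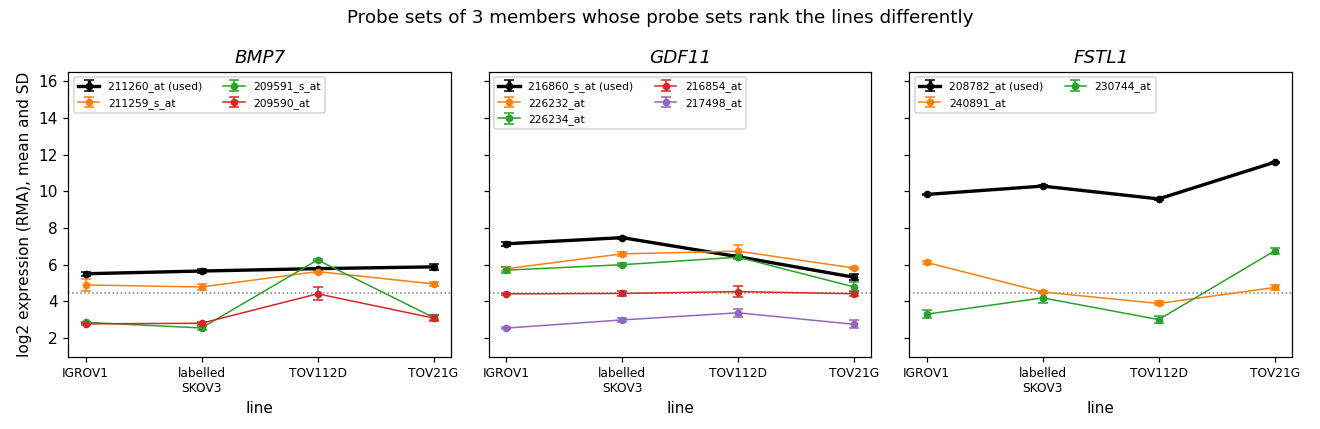
Line means and SD (3 arrays) of log2 expression (RMA) for every probe set of BMP7, GDF11 and FSTL1, with the probe set used for each gene in black and the median of all deposited values (4.44) dotted. For BMP7 the black line is flat, while 209591_s_at is at 6.26 in TOV112D and at most 3.13 in the other lines.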

How the data were processed

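The authors deposited a table of 54675 probe sets by 12 arrays in log2 units, produced by RMA in the affy package per the submitters' processing notes (version: not given in the sources used here). RMA equalises the arrays' distributions, so differences in total RNA per cell cannot be seen, and no detection calls were used. Arrays were grouped by their titles. The platform annotation gave 41097 probe sets 1 gene and 1801 several, and 11777 were unnamed. Control probe sets (62) and those with several genes were left out. limma 3.58.1 in R 4.3.3 fitted a mean for each line (8 residual degrees of freedom), which was checked on simulated data.

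Values of every array are given for genes that reached the median of all values with line means spanning at least 3, and for the 2 widest of each role. The genes and lists were chosen with earlier results of these data known. The alternatives tried are given in the closing section. Counts of genes set apart were added after seeing the data.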

Additional observations from a re-analysis of the deposited data

How the results depend on the processing

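With the replicate number as a block (replicate block), the counts of genes called higher and lower were those without it: 6 and 17 in IGROV1, 14 and 6 in the SKOV3-labelled arrays, 11 and 10 in TOV112D, 8 and 11 in TOV21G, and 39 in the F test. Same-numbered arrays of different lines had correlations of their deviations from the line means of -0.0998 to 0.128 over 18 pairs. Their mean was 0.0195, against -0.0098 for arrays with other numbers, and 6 of 12 arrays correlated best with their own number. Correlations this small cannot tell whether arrays with equal numbers belong together. Leaving out 1 array at a time gave 6 to 6 higher and 16 to 17 lower in IGROV1, 13 to 14 and 6 to 7 in the SKOV3-labelled arrays, 10 to 11 and 10 to 13 in TOV112D, 8 to 9 and 11 to 12 in TOV21G, and 38 to 40 in the F test. With no minimum difference the counts were 14 higher and 28 lower in IGROV1, 24 and 15 in the SKOV3-labelled arrays, 17 and 26 in TOV112D, and 21 and 26 in TOV21G. Without a minimum more of all genes can be called as well, so these counts cannot be set against the shares given above. With a minimum of 2, BMP2, BMP6, INHBB, TGFBR2 and SMAD3 stayed higher in IGROV1 and 10 genes were lower. The counts were then 8 higher and 3 lower in the SKOV3-labelled arrays, 7 and 3 in TOV112D, and 0 and 3 in TOV21G. Called against each of the other 3 lines, the counts were 5 higher and 8 lower in IGROV1 and 9 and 1 in the SKOV3-labelled arrays. They were 6 and 2 in TOV112D, and 1 and 2 in TOV21G. Without the SKOV3-labelled arrays, TOV21G had 6 lower genes, and the 14 genes given array by array whose largest difference lay in another line kept their call. The other probe sets alone turned the sign for BMP6 in IGROV1 (215042_at, -0.062, and 241141_at, -0.28) and for BMPR2 in TOV112D (1556075_at, -0.050), all below the median of all values in every line. Other probe sets alone ended the call for TGFB1 (-0.30), TGFB2 (0.13), BMPR1B (0.50), SMAD3 (-0.35) and ID4 (-0.71). The cause was not tested. The F test called 35 to 40 of the genes with probe sets averaged per gene, with _x_at probe sets left out, with dim genes left out, with centred arrays, with quantile normalization or with a trended prior. Apart from calls against each of the other 3 lines, shares of all genes under these alternatives are not given here. The counts of this section therefore show only how the calls of the set moved. Signal near the bottom of the scale limits every difference in which a line mean lies below the median of all values, and 3 arrays a line limit its precision.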
